A study of Mus musculus with 27 samples.

Results

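The 7 genes that encode subunits of the NMDA receptor, Grin1, Grin2a, Grin2b, Grin2c, Grin2d, Grin3a and Grin3b, were followed in fetal mouse brain. They were picked by gene symbol from a table of read counts for 55416 genes, and all 7 passed the filter on low counts in every comparison. Whole brains of female fetuses were collected on gestational days 12, 15 and 17 (d12, d15 and d17), counted from the day of the vaginal plug as day 1, from dams of about 8 weeks. C57BL/6J is a long-lived inbred strain, AKR/J a short-lived inbred strain, and Cav1-null (B6.Cg-Cav1tm1Mls/J) a short-lived congenic strain that lacks caveolin 1 in every cell, and no sample received a treatment. Strain and day gave 9 groups with 3 libraries each, so 27 libraries of mRNA were compared between days within a strain (d12 to d15, called early phase, then d15 to d17, called late phase) and between each short-lived strain and C57BL/6J. The strains were bred separately, so no C57BL/6J fetus was a littermate of a Cav1-null fetus. The study calls the 3 libraries of a group biological replicates, and whether they came from separate litters is not given in the sources used here.

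NMDA receptors are glutamate-gated channels that pass calcium and open only when glutamate and a co-agonist, glycine or D-serine, are bound while the membrane is depolarised. A receptor is built around obligatory GluN1 subunits, encoded by Grin1, which bind the co-agonist. The GluN2 subunits, encoded by Grin2a to Grin2d, bind glutamate and set the kinetics of the channel, and the GluN3 subunits, encoded by Grin3a and Grin3b, bind glycine and lower calcium entry. In the rodent brain Grin2b and Grin2d are known as the embryonic GluN2 genes, Grin2a rises mainly after birth, Grin2c is known from the cerebellum, and Grin3b from motor neurons.

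In GRCm39 the genes lie on 7 chromosomes: Grin1 at chr2:25181186-25209226, Grin2a at chr16:9385762-9813424, Grin2b at chr6:135690231-136150548, Grin2c at chr11:115139992-115158525, Grin2d at chr7:45481304-45527802 and Grin3a at chr4:49661611-49845847, all on the minus strand, and Grin3b at chr10:79806549-79813024 on the plus strand. RefSeq promoters (GRCm38.p6, 250 bases before to 50 bases after the start) were matched for 4 of the 7 genes, Grin1, Grin2c, Grin2d and Grin3b. Those of Grin1, Grin2d and Grin3b are printed 5′ to 3′ on the strand of the gene. Grin1 and Grin2d were called higher together in 4 of the 6 comparisons of days, and Grin1 also in the early phase of Cav1-null. Grin3b was called in none of the 6. Capitals mark a GC box (GGGCGG, the Sp1 motif) and the letters GGACAG, the right part of the RE1 element bound by the repressor REST, on either strand.
Grin1 (chr2:25319138-25319437, minus): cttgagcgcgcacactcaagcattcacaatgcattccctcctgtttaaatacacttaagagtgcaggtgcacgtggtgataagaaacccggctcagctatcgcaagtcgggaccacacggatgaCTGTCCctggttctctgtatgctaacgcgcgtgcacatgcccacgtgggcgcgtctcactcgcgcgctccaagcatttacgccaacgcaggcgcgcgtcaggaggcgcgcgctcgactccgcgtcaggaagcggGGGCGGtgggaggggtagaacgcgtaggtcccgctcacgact
Grin2d (chr7:45866632-45866931, minus): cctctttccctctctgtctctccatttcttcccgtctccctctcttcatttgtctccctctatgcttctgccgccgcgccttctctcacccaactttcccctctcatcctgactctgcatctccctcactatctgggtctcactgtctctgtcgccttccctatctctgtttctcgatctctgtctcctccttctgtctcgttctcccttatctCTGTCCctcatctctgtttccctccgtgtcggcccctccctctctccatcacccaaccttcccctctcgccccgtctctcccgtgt
Grin3b (chr10:79970474-79970773, plus): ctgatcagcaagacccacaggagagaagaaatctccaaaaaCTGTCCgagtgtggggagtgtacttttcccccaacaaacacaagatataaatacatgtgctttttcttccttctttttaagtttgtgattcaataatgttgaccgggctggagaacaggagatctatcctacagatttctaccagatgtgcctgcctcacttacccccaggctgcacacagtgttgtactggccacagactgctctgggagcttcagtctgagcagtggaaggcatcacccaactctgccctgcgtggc
The Grin1 window had a GC content of 60.7% and 33 CpG, that of Grin2d 56% and 12 CpG, and that of Grin3b 48.3% and 3 CpG, beside a median of 52.7% and 7 CpG over 32851 promoters. A GC box stood in the Grin1 window and 3 overlapping or neighbouring ones in that of Grin2c, whose GC content was 70%, and 35.7% of all promoters held at least 1. GGACAG occurred once each in the windows of Grin1, Grin2d and Grin3b, and in 22.2% of all promoters. The left part of RE1 (TCAGCACC, in 1.65% of all promoters) and the palindromic NRF1 motif (in 0.971%) were found in none of the 4 windows. These matches are letters in a window and were not tied to any change in expression.

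The libraries held 26363697 to 39759702 reads on genes (median 29700746). Cav1, the gene deleted in the Cav1-null strain, had 0 to 16 reads in the 9 Cav1-null libraries and 182 to 1288 in the other 18. All 18 pan-neuronal marker genes were detected in every group but the d12 libraries of AKR/J stood apart. Summed over the 13 erythroid marker genes in the table, they held 33239 to 197887 CPM (counts scaled to library size after TMM correction, which evens out the composition of libraries), against at most 5352 in the other d12 libraries. Trophoblast and decidua markers summed to 37.5 to 789.9 CPM in them, to 65.0 in C57BL/6J d12 replicate 3, and to at most 5.76 elsewhere. On d17 the erythroid sum was also higher in AKR/J, at 3460 to 18616 CPM, than in C57BL/6J (2361 to 2923) and Cav1-null (570.1 to 2581). Pan-neuronal genes summed to 2863 to 3769 CPM in AKR/J d12, 5343 to 9422 in C57BL/6J d12 and 6922 to 8494 in Cav1-null d12. In whole-brain RNA, fewer neurons, less RNA per neuron and a larger share of other RNA, such as the erythroid and trophoblast RNA above, cannot be told apart.

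Grin2b had the most reads of the 7 genes, 147812 over all libraries, and its CPM spanned the widest range. Grin2b on d12 was at 3.87, 10.7 and 5.49 CPM in the 3 AKR/J libraries, 93.0, 127 and 23.8 in those of C57BL/6J and 79.4, 85.9 and 84.8 in those of Cav1-null. By d15 Grin2b was at 106, 87.4 and 104 in AKR/J, 294, 348 and 349.8 in those of C57BL/6J and 189, 179.7 and 177 in those of Cav1-null. By d17 Grin2b was at 154, 162 and 140.4 in AKR/J, 534, 254 and 279 in those of C57BL/6J and 272, 271 and 255 in those of Cav1-null. On all 3 days every AKR/J library was below every C57BL/6J library, and the d15 libraries of the strains did not overlap at all. C57BL/6J d12 replicate 3 was the lowest and C57BL/6J d17 replicate 1 the highest C57BL/6J library. In the order of group means 6 of 8 neighbouring groups did not overlap in their libraries, from AKR/J d12, the lowest, to C57BL/6J d17, the highest.

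Grin1, without which no NMDA receptor forms, followed a similar course at lower counts. Grin1 on d12 was at 1.40, 2.99 and 3.61 CPM in AKR/J, 13.5, 24.9 and 5.46 in those of C57BL/6J and 9.82, 10.1 and 14.7 in those of Cav1-null. By d15 Grin1 was at 20.8, 16.2 and 22.5, 43.9, 48.5 and 56.5 and 33.7, 29.8 and 24.8 in the same order of strains. By d17 Grin1 was at 38.8, 39.6 and 45.6, 90.5, 55.8 and 56.4 and 49.4, 57.2 and 46.7. AKR/J and C57BL/6J did not overlap on any day, and within each strain the libraries of the 3 days did not overlap, except that C57BL/6J d17 reached down to 55.8 and d15 up to 56.5. Along the order of group means 3 of 8 neighbours were separated.

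Grin2d, the other embryonic GluN2 gene, and Grin3a, the main GluN3 gene of the forebrain, ran close to Grin1. Grin2d on d12 was at 4.49, 5.13 and 6.04 CPM in AKR/J, 20.5, 34.5 and 11.3 in those of C57BL/6J and 13.3, 14.1 and 25.6 in those of Cav1-null. By d15 Grin2d was at 24.7, 25.3 and 27.6, 51.6, 56.0 and 70.0 and 33.9, 31.9 and 23.6, and by d17 at 43.7, 40.9 and 45.0, 111, 61.3 and 63.7 and 46.1, 62.9 and 48.3, in the same order of strains. AKR/J lay below C57BL/6J on every day, and Cav1-null lay below C57BL/6J without overlap on d15 only. Grin3a on d12 was at 2.64, 6.55 and 3.10 CPM in AKR/J, 19.6, 25.2 and 7.68 in those of C57BL/6J and 15.1, 18.6 and 21.1 in those of Cav1-null. By d15 Grin3a was at 27.2, 29.2 and 39.7, 60.7, 68.1 and 84.2 and 40.1, 39.5 and 36.2, and by d17 at 54.1, 52.5 and 64.6, 144, 66.1 and 96.5 and 74.5, 87.7 and 76.8. The AKR/J libraries were again below those of C57BL/6J on every day, and for both genes 3 of 8 neighbours in the order of group means were separated.

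The remaining 3 genes were low. Grin2a on d12 was at 2.72, 2.20 and 3.81 CPM in AKR/J, 3.22, 4.79 and 2.57 in those of C57BL/6J and 4.96, 4.62 and 6.45 in those of Cav1-null. By d15 Grin2a was at 5.18, 6.29 and 5.91, 8.13, 8.50 and 9.55 and 9.41, 7.23 and 8.78, and by d17 at 9.01, 12.7 and 12.6, 17.1, 22.3 and 13.2 and 21.4, 16.7 and 15.9. It was higher on d17 than on d12 in every strain without overlap, and 2 of 8 neighbouring groups were separated. Grin2c ranged from 0.31 to 5.50 CPM (9 to 166 reads), and none of the 8 neighbouring groups was separated. Grin3b on d12 was at 1.57, 1.15 and 0.813 CPM in AKR/J, 1.64, 2.18 and 1.27 in those of C57BL/6J and 1.38, 1.44 and 0.979 in those of Cav1-null. By d17 Grin3b was at 0.94, 0.723 and 0.568, 1.26, 0.956 and 0.527 and 0.368, 0.881 and 0.7, with 11 to 69 reads in any library. Of its 8 neighbouring groups none was separated. Its exons overlap those of Tmem259 on the other strand, which had up to 4734 reads in a library. The sources used here do not give the handling of strand, and reads of the 2 genes cannot be told apart without it. Grin1 shares exons in the same way with Grin1os, an antisense RNA with at most 180 reads.

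**Figure D1:**
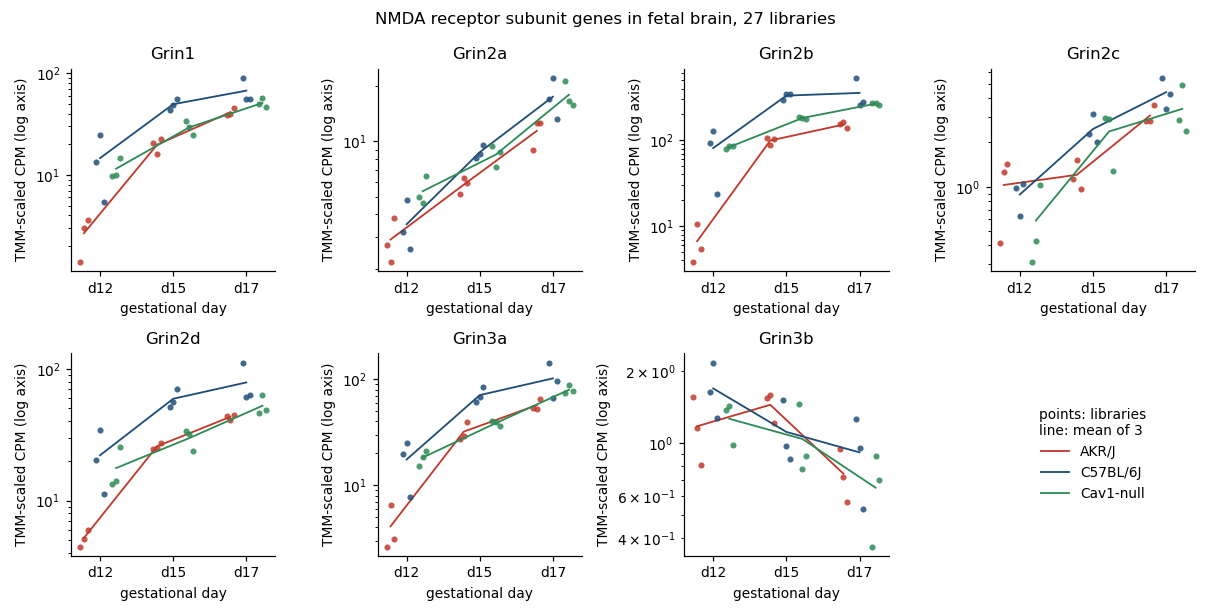
TMM-scaled CPM (log axis) of the 7 subunit genes against gestational day, with 1 point per library, a colour per strain and a line through the means of 3 libraries. Grin1, Grin2b, Grin2d and Grin3a start lowest in AKR/J d12, and Grin3b stays between 0.368 and 2.18 CPM.

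In the early phase the same 4 genes, Grin1, Grin2b, Grin2d and Grin3a, had the largest fold changes in AKR/J. By edgeR (quasi-likelihood test, Benjamini-Hochberg adjusted over all genes), 4 of 7 subunits rose in AKR/J, where 28.9% of all tested genes were called and 14.8% rose. Grin2b rose by a log2 fold change of 3.83 ± 0.37 (SE, adjusted p = 0.000957), Grin3a by 2.91 ± 0.37 (0.00197), Grin1 by 2.85 ± 0.36 (0.00197) and Grin2d by 2.26 ± 0.20 (0.000831). Grin2a, at 0.95 ± 0.31, missed the threshold (adjusted p = 0.0528), and Grin2c (0.19 ± 0.54) and Grin3b (0.25 ± 0.42) were not called. These values were taken against the AKR/J d12 libraries with the erythroid and trophoblast RNA described above, and the part of that RNA in them was not tested. Scaled to the reads of the 18 pan-neuronal genes instead, which moved the median of all genes from 0.02 to -1.13, the same 4 genes were called, with Grin2b at 2.62 ± 0.40, while the signs of Grin2a (-0.15), Grin2c (-0.91) and Grin3b (-0.89) turned.

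In C57BL/6J, 6 of 7 subunits rose in the early phase beside 14.9% of all genes called (7.08% rising). The changes were 1.99 ± 0.51 for Grin2b, 1.98 ± 0.38 for Grin3a, 1.73 ± 0.45 for Grin1, 1.41 ± 0.32 for Grin2c, 1.39 ± 0.34 for Grin2d and 1.27 ± 0.24 for Grin2a, with edgeR adjusted p from 0.0251 to 0.0448. Grin3b was at -0.64 ± 0.34. All 6 calls were lost when C57BL/6J d12 replicate 1 or any of the d15 replicates was left out, although the changes kept their sign. In these refits 0 to 330 genes of the whole table were called, against 2850 with all libraries. Pan-neuronal sums were 5343 to 9422 CPM on d12 and 10262 to 11633 on d15, and scaled to these reads Grin2a (0.72, edgeR adjusted p = 0.0585) and Grin2c (0.77, 0.187) were no longer called. Excitatory neuron sums of C57BL/6J were 331 to 946 on d12 and 1519 to 1706 on d15, and glial sums 142 to 226 and 310 to 378. Its erythroid sums were 1945 to 4675 and 825 to 1068, and progenitor sums 2855 to 3644 and 2248 to 2463. The part of these in the 6 rises was not tested. In Cav1-null, 5 of 7 rose beside 23.4% of all genes (11.6% rising): Grin2c by 1.97 ± 0.51, Grin1 by 1.35 ± 0.19, Grin2b by 1.12 ± 0.08, Grin3a by 1.08 ± 0.14 and Grin2a by 0.66 ± 0.21 (edgeR adjusted p = 0.0499). Grin2d was at 0.75 ± 0.26 (edgeR adjusted p = 0.069) and Grin3b at -0.28 ± 0.35. Without Cav1-null d12 replicate 3 Grin2d was called, at 1.13 (edgeR adjusted p = 1.2e-05). The count of 5 fell to 3 without Cav1-null d12 replicate 1 or 2 or d15 replicate 1 or 2, while 2301 to 3556 genes were called in all, against 4666. Erythroid sums of Cav1-null lay between 4074 and 5352 CPM on d12 and between 2910 and 3617 on d15, progenitor sums between 2051 and 3033 and between 1651 and 1754, and pan-neuronal sums between 6922 and 8494 and between 8556 and 8682. None of these overlapped between the days, and the part of these in the 5 rises was not tested. Scaled to pan-neuronal reads, Grin2a was not called (0.43, edgeR adjusted p = 0.231).

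In the late phase Grin1 and Grin2b had smaller fold changes than in the early phase in all 3 strains, while those of Grin2a were 0.95 and 0.99 in AKR/J, 1.27 and 1.06 in C57BL/6J, and 0.66 and 1.09 in Cav1-null. In AKR/J 6 of 7 subunits rose beside 22.1% of all genes (11.6% rising), by log2 fold changes from 0.63 ± 0.09 for Grin2b to 1.35 ± 0.28 for Grin2c, with edgeR adjusted p from 0.00135 to 0.0124, and Grin3b was at -0.94 ± 0.32 (adjusted p = 0.0691). Erythroid markers summed to 2012 to 3070 CPM in the AKR/J d15 libraries and to 3460 to 18616 in those of d17. Glial sums were 143.5 to 208.1 and 221.6 to 243.6, and muscle and connective tissue sums 132.5 to 844.1 and 61.5 to 89.2. The part of these in the 6 rises was not tested. In a fit of all 27 libraries 3 subunits were called (2366 genes in all, against 4409). Scaled to pan-neuronal reads 2 were called, Grin1 and Grin3a (4300 genes in all). In Cav1-null 5 of 7 rose beside 27.3% of all genes (14.5% rising), led by Grin2a at 1.09 ± 0.14 and Grin3a at 1.05 ± 0.08. In the fit of all 27 libraries 1 did, and 829 genes were called in all, against 5530. The erythroid sums of Cav1-null lay between 2910 and 3617 CPM on d15 and between 570.1 and 2581 on d17. Its glial sums lay between 134.2 and 160.2 on d15 and between 291.3 and 324.2 on d17. Its pan-neuronal sums lay between 8556 and 8682 on d15 and between 9141 and 9643 on d17. Excitatory neuron sums lay between 1073 and 1171 and between 770.1 and 973, and GABAergic sums between 639.1 and 688.9 and between 518 and 616.8. Progenitor sums lay between 1651 and 1754 and between 1213 and 1566. The part of any of these in the rises was not tested. In C57BL/6J only Grin2a rose, by 1.06 ± 0.20 (edgeR adjusted p = 0.02), beside 13% of all genes (7.46% rising), while Grin2b was at 0.17 ± 0.29. Without C57BL/6J d17 replicate 1 Grin2b turned in sign, to -0.25 ± 0.13. Erythroid sums of C57BL/6J lay between 825.4 and 1068 CPM on d15 and between 2361 and 2923 on d17. Excitatory neuron sums lay between 1519 and 1706 on d15 and between 786.2 and 1329 on d17, GABAergic sums between 858.5 and 978.6 and between 392.9 and 718.3, and progenitor sums between 2248 and 2463 and between 1344 and 1580. None of these overlapped between the days, and their part was not tested. The Grin2a call was lost without C57BL/6J d17 replicate 3 or any d15 replicate (160 to 781 genes called in all, against 2594), and without d17 replicate 2 Grin2c and Grin3a were called too (2797 in all). Grin2a passed the test in the late phase of all 3 strains with all libraries in, but in AKR/J its call was lost without d17 replicate 2 (edgeR adjusted p = 0.0549) or replicate 3 (0.0522), and that of Grin2c without replicate 3 (0.0679). Grin3b was not called in any of the 6 comparisons of days, but scaled to pan-neuronal reads it was called lower in C57BL/6J from d12 to d15 (-1.17 ± 0.40, edgeR adjusted p = 0.0473), where this scaling put the median of all genes at -0.64.

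**Figure D2:**
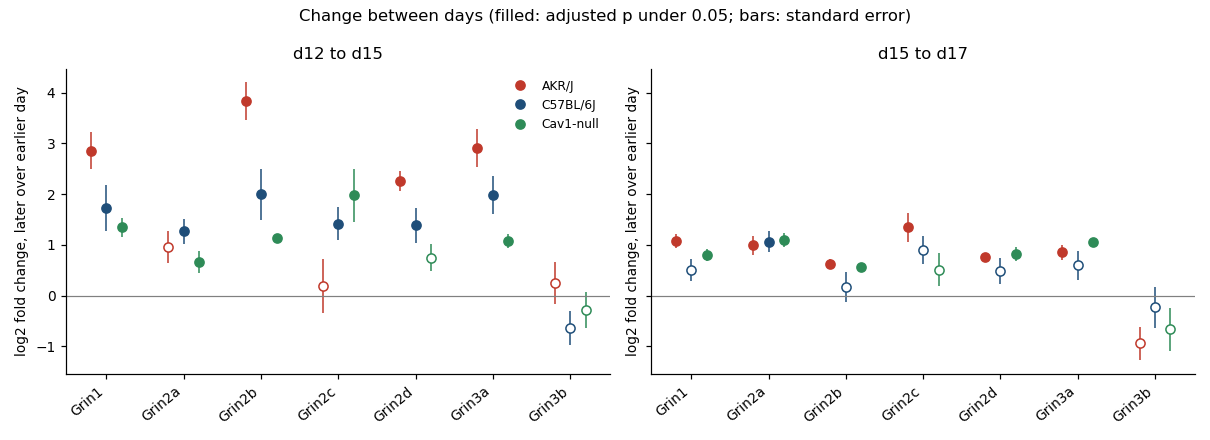
Log2 fold change between days (later over earlier) for each subunit and strain, with the standard error as bars and filled points where the edgeR adjusted p was under 0.05. In the early phase the AKR/J points of Grin1, Grin2b, Grin2d and Grin3a lie between 2.26 and 3.83, and Grin3b has no filled point.

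An interaction of strain and day tested whether a strain changed more than C57BL/6J did. No subunit was called in any of the 4 interactions by edgeR, where 0.403% of all genes were called for AKR/J and 0% for Cav1-null in the early phase, and 0% and 0.0224% in the late phase. At an unadjusted p under 0.05 there were 2 subunits for AKR/J in the early phase and 0 in the other 3. DESeq2 called 1 and 0 in the same way. The largest difference was that of Grin2b, which rose by 1.85 ± 0.63 more in AKR/J than in C57BL/6J in the early phase (edgeR adjusted p = 0.126). It was called at 2.39 without AKR/J d12 replicate 2 (3708 genes in all, against 90 with all libraries) and at 2.23 without C57BL/6J d12 replicate 3 (1054 genes), and by DESeq2 at 1.78 (adjusted p = 0.0473, 1374 genes). Scaled to pan-neuronal reads it was 1.07 ± 0.52 (edgeR adjusted p = 0.283). A call of a larger early rise of Grin2b in AKR/J therefore depended on the library and the tool. It also rests on the AKR/J d12 libraries with high erythroid and trophoblast RNA, whose part was not tested.

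Between strains, the subunits called in AKR/J were all lower than in C57BL/6J, 4 of 7 on d12, 6 on d15 and 1 on d17. The comparisons of AKR/J and of Cav1-null use the same C57BL/6J libraries. On d12, 4 of 7 subunits were lower in AKR/J by edgeR's quasi-likelihood test, beside 34.9% of all genes called (18.4% lower): Grin2b at -3.45 ± 0.55 (adjusted p = 0.00262), Grin1 at -2.32 ± 0.52, Grin3a at -1.95 ± 0.45 and Grin2d at -1.94 ± 0.40. Grin2a (-0.15 ± 0.34), Grin2c (0.34 ± 0.60) and Grin3b (-0.39 ± 0.40) were not called. Scaled to pan-neuronal reads, Grin2b at -2.25 ± 0.45 and Grin1 at -1.18 ± 0.45 were called, Grin2d (-0.84) and Grin3a (-0.78) were not, and Grin2a (0.87) and Grin3b (0.66) turned in sign, with the median of all genes at 1.00. Erythroid and trophoblast RNA was high in the same AKR/J libraries. Their glial sums were 65.7 to 106 CPM, against 142 to 226 in C57BL/6J on d12. The part of any of these in the differences was not tested.

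On d15 the erythroid sum was 2012 to 3070 CPM in AKR/J and 825.4 to 1068 in C57BL/6J, and pan-neuronal genes summed to 6191 to 9313 and 10262 to 11633. On this day 6 of 7 subunits were lower in AKR/J beside 41.5% of all genes (23% lower). Glial sums were 143.5 to 208.1 CPM in AKR/J and 310.0 to 377.5 in C57BL/6J, and excitatory neuron sums 592.3 to 1072 and 1519 to 1706, and the part of all these in the 6 calls was not tested. Grin2b was at -1.69 ± 0.10 (edgeR adjusted p = 3.33e-06), Grin1 at -1.28 ± 0.15, Grin2d at -1.15 ± 0.15, Grin3a at -1.10 ± 0.15, Grin2c at -0.98 ± 0.34 and Grin2a at -0.54 ± 0.16, with Grin3b at 0.42 ± 0.33. The Grin2c call was lost without any of 7 single libraries (edgeR adjusted p from 0.0509 to 0.141) and that of Grin2a without AKR/J d15 replicate 1 or C57BL/6J d15 replicate 3, and the fit of all 27 libraries called 4 subunits. C57BL/6J d15 replicate 1 held 4839.7 CPM of muscle and connective tissue markers, and without it 5 subunits were called. Relative to pan-neuronal reads 4 of these were called, with Grin2b at -1.17 ± 0.11. On d17 Grin2b alone was lower, by -1.24 ± 0.24 (edgeR adjusted p = 0.0262), beside 3.03% of all genes (1.81% lower). Erythroid sums on d17 were 3460 to 18616 CPM in AKR/J and 2361 to 2923 in C57BL/6J, and glial sums 221.6 to 243.6 and 318.7 to 613.2. Their part was not tested. Grin1 (-0.73), Grin2d (-0.89) and Grin3a (-0.86) had adjusted p of 0.0638, 0.0608 and 0.0711, and they too were called when C57BL/6J d17 replicate 2 was left out, in a refit that called 7058 genes in all against 640 with that library. The Grin2b call itself was lost without any single AKR/J or Cav1-null d17 library.

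In Cav1-null against C57BL/6J, no subunit was called on d12 by edgeR, where 0.00964% of all genes were called, with 0 subunits at an unadjusted p under 0.05 and 0 by DESeq2. On d15, 4 of 7 were lower in Cav1-null beside 51.4% of all genes (27.4% lower): Grin2d at -0.94 ± 0.15, Grin3a at -0.82 ± 0.15, Grin2b at -0.81 ± 0.10 and Grin1 at -0.70 ± 0.15, with edgeR adjusted p from 6.04e-05 to 0.00283. On that day pan-neuronal genes summed to 8556 to 8682 CPM in Cav1-null and to 10262 to 11633 in C57BL/6J, and excitatory neuron markers to 1073 to 1171 and 1519 to 1706. Erythroid markers summed to 2910 to 3617 CPM in Cav1-null and 825.4 to 1068 in C57BL/6J, glial markers to 134.2 to 160.2 and 310.0 to 377.5, and progenitor markers to 1651 to 1754 and 2248 to 2463, and the part of these in the 4 calls was not tested. Scaled to pan-neuronal reads, the same 4 genes were called, at -0.62 for Grin2d, -0.50 for Grin3a, -0.49 for Grin2b and -0.38 for Grin1, with the median of all genes at 0.37. Grin2a (0.01 ± 0.16) and Grin2c (-0.00 ± 0.33) were not called, and the fit of all 27 libraries called 2 subunits (8185 genes in all, against 10615). Without C57BL/6J d15 replicate 1, the library high in muscle markers, 4 subunits were called. On d17 none was called by edgeR, beside 0.0851% of all genes, with 2 at an unadjusted p under 0.05 and 0 by DESeq2. Without C57BL/6J d17 replicate 2, Grin1 (-0.54), Grin2b (-0.62), Grin2d (-0.75) and Grin3a (-0.60) were called on d17, in a refit that called 4798 genes in all against 18 with that library. Cav1 and Grin2b both lie on chromosome 6, 118.3 Mb apart.

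**Figure D3:**
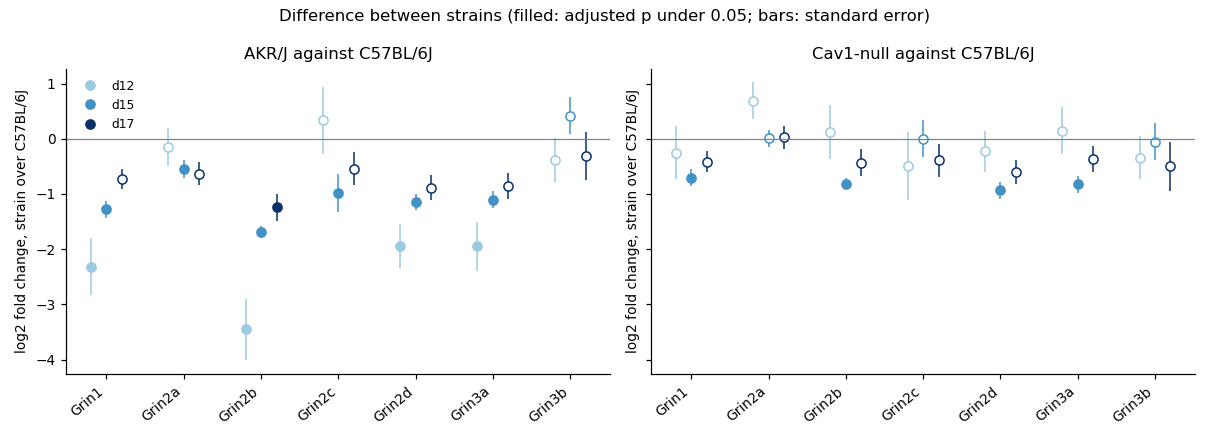
Log2 fold change of AKR/J and of Cav1-null over C57BL/6J for each subunit on d12, d15 and d17, with the standard error as bars and filled points where the edgeR adjusted p was under 0.05. Grin2b is the only gene with a filled point on all 3 days in AKR/J, from -3.45 on d12 to -1.24 on d17.

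Grin2b was also set beside the pan-neuronal genes. It stood at 1.17, 3.75 and 1.46 reads per 1000 pan-neuronal reads in the AKR/J d12 libraries, at 12.4, 13.5 and 4.46 in C57BL/6J and at 11.5, 10.1 and 12.3 in Cav1-null. By d17 it had reached 17.0, 17.7 and 15.3 in AKR/J, 45.0, 30.6 and 27.4 in those of C57BL/6J and 29.8, 28.1 and 27.2 in Cav1-null. AKR/J thus remained below the other strains on every day without overlap, while C57BL/6J and Cav1-null overlapped on d12 and d17.

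**Figure D4:**
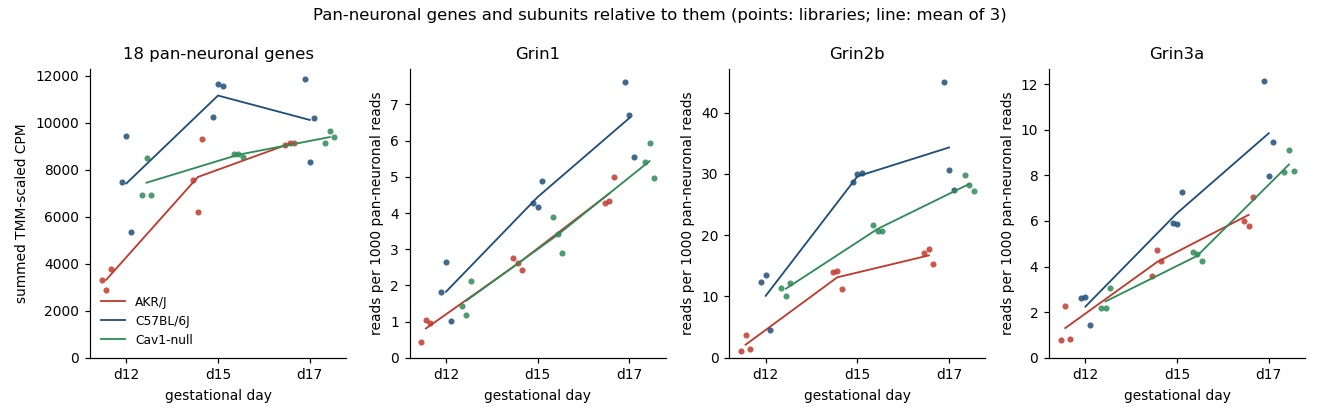
Summed CPM of the 18 pan-neuronal genes, and reads of Grin1, Grin2b and Grin3a per 1000 pan-neuronal reads, against gestational day, with 1 point per library and a line through the means of 3. The AKR/J libraries of Grin2b stay between 1.17 and 17.7, and those of C57BL/6J reach 45.0.

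The balance between GluN2 genes was compared by log2 ratios of reads within a library, which do not depend on library scaling. The 12 ratio tests used exact two-sided permutation within strain or day (8000 choices, of which 0.00025 is the smallest p they can give), with Benjamini-Hochberg adjustment over the 12. Grin2b gained on Grin2d from d12 to d15 by 0.93 (exact permutation adjusted p = 0.0042), with 1.70 for AKR/J, 0.78 for C57BL/6J and 0.32 for Cav1-null, and fell by 0.24 from d15 to d17 (0.0245). With medians in place of means neither was called, at 0.87 early and -0.19 late (exact permutation adjusted p = 0.0583 for each). The late call was lost without AKR/J d15 replicate 1, AKR/J d17 replicate 3, Cav1-null d15 replicate 3 or Cav1-null d17 replicate 2 (exact permutation adjusted p from 0.052 to 0.0613). Grin2a fell against Grin2b by 1.48 from d12 to d15 (exact permutation adjusted p = 0.0015), with -2.99 for AKR/J, -0.98 for C57BL/6J and -0.45 for Cav1-null, and rose by 0.61 from d15 to d17 (0.003). The AKR/J values rest on the d12 libraries with high erythroid and trophoblast RNA, whose part was not tested. The ratio of Grin3a to Grin1 moved by -0.01 early and 0.02 late (exact permutation adjusted p = 0.956 and 0.862), which are means over strains of unlike sign. The early values were 0.08 for AKR/J, 0.16 for C57BL/6J and -0.27 for Cav1-null, and the late ones -0.22, 0.05 and 0.24. In AKR/J the ratio of Grin2b to Grin2d was lower than in C57BL/6J by -0.79 (0.0015), and that of Grin2a to Grin2b higher by 1.61 (0.003). On d12, d15 and d17 these differences were -1.47, -0.55 and -0.33 for the former and 3.15, 1.15 and 0.54 for the latter. In Cav1-null the corresponding differences were 0.31 (0.102) and 0.50 (0.0814), of which the second was past the threshold without C57BL/6J d12 replicate 3 (0.67) or d17 replicate 2 (0.63), and the first without Cav1-null d12 replicate 3 (0.41).

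**Figure D5:**
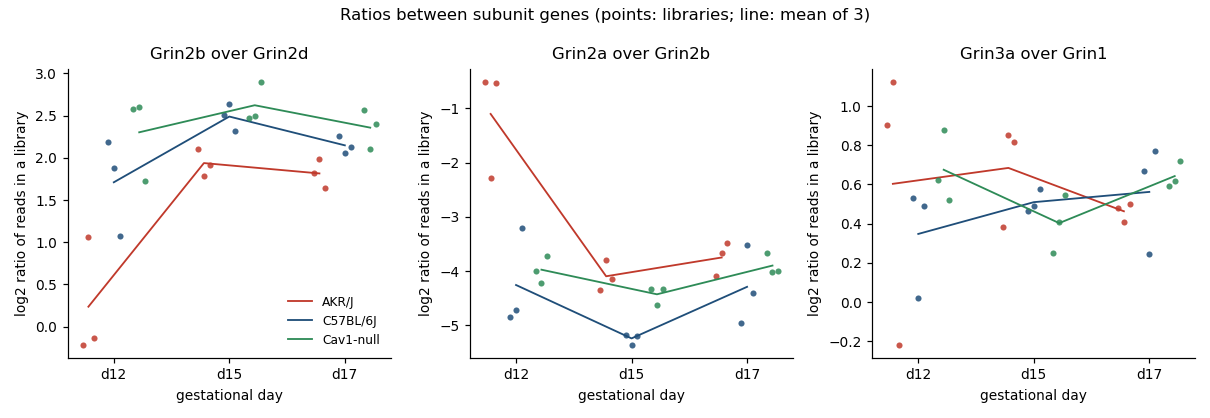
Log2 ratio of reads in a library for Grin2b over Grin2d, Grin2a over Grin2b and Grin3a over Grin1, against gestational day, with 1 point per library and a line through the means of 3. AKR/J d12 replicates 1 and 3 hold about as many Grin2b as Grin2d reads (-0.21 and -0.14), and replicate 2 lies at 1.06.

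Per kilobase of exon, Grin2b made up 21.7% ± 9.1 (SD, n = 3) of the GluN2 reads in AKR/J d12, and Grin2d 56.9% ± 6.5. On d12 Grin2b made up 47.7% ± 10.6 in C57BL/6J and 56.7% ± 8.1 in Cav1-null, and on d15 51.1% ± 3.0, 61.3% ± 2.3 and 61.6% ± 3.6 in AKR/J, C57BL/6J and Cav1-null. By d17 the share was 48.2% ± 3.0, 54.4% ± 2.8 and 56.9% ± 3.3. Grin2a stayed at 2.20% to 6.63% of GluN2 in all libraries outside AKR/J d12, where it was 9.39% to 16.6%.

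Genes that work with the receptor were described from a list of 59 genes in 6 roles. In the early phase 29 rose and 1 fell in AKR/J, 18 and 2 for C57BL/6J, and 24 and 11 for Cav1-null. From d15 to d17, 24 rose and 11 fell in AKR/J, 11 and 8 for C57BL/6J, and 31 and 9 for Cav1-null. Of all genes tested, 14.8% rose and 14% fell early for AKR/J, 7.08% and 7.8% for C57BL/6J, and 11.6% and 11.8% for Cav1-null. The late shares were 11.6% and 10.4%, 7.46% and 5.58%, and 14.5% and 12.8%. The median log2 fold change of the list was 0.79 early and 0.26 late in AKR/J, 0.50 and -0.04 in C57BL/6J, and 0.25 and 0.26 in Cav1-null, beside medians of all genes between -0.04 and 0.03. The AKR/J early counts rest on the d12 libraries with 33239 to 197887 CPM of erythroid markers, whose part was not tested. The C57BL/6J early counts depended on single libraries: of all genes tested, 330 were called without d12 replicate 1, and 6, 0 and 2 without d15 replicates 1, 2 and 3, so that no partner kept its call without d15 replicate 2. The partners named here were chosen for the size of their median change over these same 6 comparisons, so their changes follow in part from that choice and do not stand for their roles as a whole. Scaffolds that anchor the receptor at the synapse, such as Dlg2 and Dlgap1, rose or were not called in each comparison of days, Dlgap1 with a rise in 5 of 6. Dlg2, which encodes PSD-93, rose in all 6 comparisons of days, by 0.79 to 3.24. The exchange factors Rasgrf1 and Rasgrf2, which link the receptor to Ras, rose in all 6, Rasgrf1 by 0.83 to 4.63. Neto1, an auxiliary protein of glutamate receptors, Snap25, of the vesicle fusion machinery, and Mef2c, an activity-dependent transcription factor, also rose in all 6. Of the 5 genes of glutamate uptake, 2 rose and 2 fell in the early phase of Cav1-null, and all 5 rose in its late phase. Slc1a1, a neuronal glutamate transporter, rose in 5 of 6, Slc1a6, the transporter known from Purkinje cells, in 4, and Slc7a10, which carries D-serine and glycine, in 5. Shmt1, an enzyme of serine and glycine metabolism, fell in 5 of 6, by 0.87 to 1.30 on the log2 scale. Rcor2, a corepressor partner of REST, fell in 4 of 6. Against C57BL/6J, 30 of the 59 were lower and 1 higher in AKR/J on d12, 38 and 2 on d15, and 4 and 0 on d17, where 18.4%, 23% and 1.81% of all genes were lower and 16.5%, 18.5% and 1.22% higher. On d17, 32 of the 59 had an unadjusted edgeR p under 0.05 in AKR/J, beside 5860 of 21148 genes, and DESeq2 called 21 (2786 genes in all). Over all genes, edgeR called 164 without AKR/J d17 replicate 1 and 7058 without C57BL/6J d17 replicate 2, against 640. On d12 the AKR/J libraries held 33239 to 197887 CPM of erythroid and 2863 to 3769 of pan-neuronal markers, against 1945 to 4675 and 5343 to 9422 in C57BL/6J. On d15 the lower glial and excitatory neuron sums of AKR/J given above moved with these counts, and the part of any of these markers was not tested. In Cav1-null 36 were lower and 10 higher on d15, beside 27.4% and 24% of all genes, on the day when its glial, progenitor and neuronal sums lay below and its erythroid sums above those of C57BL/6J, and their part was not tested. On d12 and d17 edgeR called 0 of the 59 in Cav1-null, with 12 and 16 at an unadjusted p under 0.05, and DESeq2 called 3 and 0.

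Over all 27 libraries, the genes most like 5 of the subunits by Pearson's r on log2(CPM + 1), among 18558 genes, were named. The r is a description, since all genes share the libraries and their depth. Snph was closest to Grin1 (r = 0.993), followed by Faim2 and Osbp2. For Grin2b the closest genes were Tanc2 (0.987), Sorcs1 and Psd, and for Grin2c Ache (0.917), Rasgrp2 and Htr1b. The gene closest to Grin2d was Grin1 itself (0.986), ahead of Elfn2 and Gabbr2. Osbp2 led for Grin3a (0.993), with Lsamp and Tenm1 next. Grin3b had a negative r with each of the other 6 subunits, from -0.61 with Grin2a to -0.27 with Grin2b.

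Splice junctions were listed for 5 of the subunits, 10 of them for Grin1, 3 for Grin2b, and 2 each for Grin2a, Grin2d and Grin3a. Of those listed under Grin2d, the junction at chr7:45523626-45530923 lies inside Kdelr1 and is described further below. A single exon that can be skipped could be outlined, a 63-base exon of Grin1 at chr2:25201355-25201417 (GRCm39, minus strand). This length and place in the gene are those of the N1 cassette, which alters how protons and polyamines act on the receptor. It is printed in capitals with 20 bases of intron on either side.
Grin1 exon: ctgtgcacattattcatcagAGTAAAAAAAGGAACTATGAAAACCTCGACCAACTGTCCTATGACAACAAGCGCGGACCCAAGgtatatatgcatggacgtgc
Skipping reads summed to 339 over all libraries and were at 0 in 13 of them, and the inclusion junctions had 45 and 99. Only 6 of the 18 libraries of d12 and d17 held 10 reads, fewer than the 14 required, so inclusion was not tested between days. A 0 can also stand for reads removed by the filter on junctions.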

How the data were processed

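Per the labels and the study's methods, the authors sequenced polyA mRNA of whole fetal brain as paired reads, checked the reads with FastQC, trimmed them with cutadapt and fastp, and mapped them to GRCm39 with STAR. The deposited gene table holds raw read counts, and the deposited junction table holds counts of reads that span each junction, from which the authors removed junctions with multi-mapped reads, short overhangs or few reads. The counting tool and its handling of strand are not given in the sources used here. The members and gene lists were chosen with earlier results of these data known.

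Libraries (26363697 to 39759702 reads on genes) were grouped by strain and day. Counts were tested in R 4.3.3 with edgeR 4.0.16 (filterByExpr, TMM, quasi-likelihood test, Benjamini-Hochberg over all genes, called under 0.05): each pair of days on 6 libraries, the strains of a day on 9, and interactions on 18. The SE is the size of the log2 change divided by the root of the F statistic. Ratios, with 0.5 added to each count, were tested by exact permutation in Python 3.11.15 with numpy 2.4.6. CPM per kilobase used the union of exons of GENCODE M39, not the authors' annotation release. The fits were tested on simulated data. The deviations of same-numbered replicates from their group means were in no comparison all correlated at over 0.1 for the 3 numbers. Single correlations reached 0.43 (AKR/J against C57BL/6J on d17). Alternatives were DESeq2 1.42.0, RLE, library sizes alone, scaling to pan-neuronal reads, no filter, a replicate block, a fit of all 27 libraries, and leaving out each library. Named partner genes were the 2 of each role with the largest absolute median change over the 6 comparisons of days, and named similar genes were the 3 with the highest r, which are not reported here for Grin2a and Grin3b. The promoter motifs were chosen outside such a rule.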

Additional observations from a re-analysis of the deposited data

Results flagged for a closer look

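A junction that the junction table lists under Grin2d lies inside Kdelr1, a gene on the other strand that overlaps the start of Grin2d without sharing an exon. It held 109 to 366 reads in a library, with the highest count in C57BL/6J d15 replicate 1. In AKR/J d12 replicate 1 it held 230 reads, beside 109 reads counted for Grin2d as a gene. The junction was used in no comparison, and it came to notice as signal outside the gene counts. The reads counted for Kdelr1 were 1153 to 2961 in a library.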

How the results depend on the processing

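The number of subunits called stayed within 1.5 times the main count 94 times under other settings, against 18 times that it did not, and 139 against 23 times with a library left out. These numbers include the comparisons with a main count of 0, where a count that stayed at 0 was taken as unchanged. No subunit called in either fit changed sign. Scaled to pan-neuronal reads, the late phase of AKR/J gave 2 calls (4300 genes in all, against 4409) and AKR/J against C57BL/6J on d12 gave 2 (9782, against 7237). One fit of all 27 libraries gave 3 calls for the late phase of AKR/J (2366 genes in all), 1 for that of Cav1-null (829), 2 for Cav1-null on d15 (8185), 0 for AKR/J on d17 (838) and 1 for the early interaction of AKR/J (1660). The main fits called 4409, 5530, 10615, 640 and 90 genes in these. DESeq2 gave 2 for the late phase of C57BL/6J (4581 genes in all, against 2594), 4 for AKR/J on d17 (2786) and 1 for that interaction (1374). Library sizes alone gave 2 (3067), 3 (748) and 2 (1942), and no filter gave 4 (2208) and 1 (898) for the last 2. With the replicate number as a block, the early phase of C57BL/6J gave 0 calls (and 0 over the whole table), that of Cav1-null 3, and AKR/J on d17 0 (217 over the table). The labels give the numbers only as sample names, so the block was not used for the main calls. With medians in place of means, Grin2b over Grin2d changed by 0.87 early and by -0.19 late (exact permutation adjusted p = 0.0583 for each). The cause of these shifts was not tested.

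Leaving out each library in turn gave 0 to 6 early and 0 to 3 late calls for C57BL/6J, 3 to 6 early calls for Cav1-null, 0 to 4 for AKR/J and 0 to 4 for Cav1-null on d17, and 0 to 1 for the early interaction of AKR/J. It gave -0.28 to -0.20 for Grin2b over Grin2d in the late phase, 0.21 to 0.41 for that ratio in Cav1-null against C57BL/6J, and 0.38 to 0.67 for Grin2a over Grin2b there. Library sizes alone put the median of all genes at 0.46 for AKR/J d12 to d15, and at -0.36 for AKR/J against C57BL/6J on d12, where Grin2c turned to -0.02. The alternatives for exon inclusion were not run, as no exon met the minimum. Grin2c and Grin3b had only 9 to 166 and 11 to 69 reads in a library, which limits their precision.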
